A study of Mus musculus with 8 samples.

Results

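The genes described here move iron, zinc or manganese across membranes or store iron: Tfrc, Slc11a2, Slc40a1, Fth1, Ftl1, Slc39a8, Slc39a10, Slc39a14, Slc30a1 and Slc30a10. They were chosen by symbol through the GENCODE M21 annotation of the mouse build GRCm38 and are 10 of the 25700 gene identifiers in each count table. All 10 had a row, and all 10 passed the filter on low counts that left 14154 genes for testing. The libraries hold messenger RNA of endothelial cells sorted by flow cytometry from brains of C57BL/6 pups at postnatal day 6. KO pups carried the genotype GLUT1EC-/-, a loss of the glucose transporter GLUT1 in endothelial cells (n = 4, pups 1 to 4), and the controls were WT pups described as littermates (n = 4, pups 1, 2, 3 and 5). The Cre driver of the deletion is not given in the sources used here. The comparison asks how the transcriptome of brain endothelium differs when this transporter is lost.

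Brain endothelium takes up transferrin-bound iron from blood through the transferrin receptor, and iron leaves the cell through ferroportin, the product of Slc40a1. Inside the cell, spare iron is kept in ferritin, a shell of heavy and light chains. When iron is scarce, iron regulatory proteins bind a short hairpin, the iron-responsive element, in these messengers: in a 5′ untranslated region binding blocks translation, and in the 3′ untranslated region of Tfrc it protects the messenger from decay. Zinc and manganese enter the cytosol through carriers of the SLC39 (ZIP) family, and carriers of the SLC30 (ZnT) family move zinc, or in the case of Slc30a10 manganese, out of it.

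Each KO library held 20858070 to 40833036 counts and each WT library 25886455 to 114007737. With 13624 genes above 0, KO pup 1 detected fewer than any other library (15756 to 17082). The GLUT1 gene Slc2a1 averaged 1507 ± 89.6 CPM across KO pups and 3044 ± 664 CPM across WT pups (SD, n = 4 each), where CPM is counts scaled to 1e+06 per library by TMM. Its log2 fold change was -1.01 (SE 0.14, edgeR quasi-likelihood adjusted p 0.00619). It was -0.89 with the cage of a second set of labels as a term (edgeR adjusted p 0.331) and -0.91 with pup number as a block (edgeR adjusted p 0.0644), so the call was lost in both. With the cage of the sample titles as a term it was -1.31 and stayed called (edgeR adjusted p 0.0207). All 10 endothelial markers were detected in every library, and their summed level was 13161 to 14923 CPM in KO and 14060 to 14839 CPM in WT. Of 9 marker lists, the sums of KO and WT libraries did not overlap for fibroblasts and choroid plexus, at 18.3 to 337 CPM in KO and 383 to 1882 CPM in WT (6 genes, 5 detected in every library). The choroid plexus gene Ttr carried the sum, with 121 ± 113 CPM among KO pups and 866 ± 675 CPM among WT pups (SD, n = 4 each; edgeR adjusted p 0.193). Folr1 and Kl, also of the choroid plexus, had log2 fold changes of -1.87 and -1.49, and the fibroblast genes Col1a1, Dcn and Lum 0.03, -0.37 and -0.09, with overlapping libraries for these 5. For the summed level, a two-sided exact permutation test gave p = 0.0286, which no split among the 70 assignments can undercut, and 0.257 after adjustment over the 9 lists, and the part of such cells in the results was not tested. The astrocyte sum, 303 to 399 CPM in KO and 311 to 369 CPM in WT, was carried by Gja1, with a log2 fold change of -0.23, while Gfap, Aqp4, Slc1a2, Aldh1l1 and Slc1a3 had 1.43, 1.13, 1.08, 1.03 and 0.31. None of these 6 passed (smallest edgeR adjusted p 0.237). Sums were 16.8 to 22.0 and 18.0 to 26.9 CPM for neurons, 65.5 to 145 and 53.1 to 144 CPM for the oligodendrocyte lineage, and 577.5 to 813 and 547 to 733 CPM for cycling cells, each in KO and in WT. By the sample titles the 4 KO pups and WT pup 5 shared a cage and the other 3 WT pups another. The second labels put WT pup 3 in place of WT pup 5, so genotype and cage cannot be fully told apart. As the samples are bulk RNA, fewer cells of a type and less RNA per cell cannot be told apart either.

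Ferritin and transferrin receptor messengers were among the most abundant in these cells, and Slc30a10 and Slc39a14 were the scarcest of the genes described here. Levels of different genes were compared as CPM per kilobase of the longest protein-coding messenger. Fth1, the ferritin heavy chain, stood first with 2697 ± 21.9 CPM per kilobase in KO and 2894 ± 242 in WT (SD, n = 4 each, here and for the levels that follow). Ftl1, the ferritin light chain, had 799.6 ± 102 CPM per kilobase in KO and 681 ± 53.8 in WT. Tfrc, the transferrin receptor, had 710.4 ± 100.3 CPM per kilobase in KO and 759 ± 169 in WT, and its range over the 8 libraries overlapped that of Ftl1.

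Slc40a1 followed with 283 ± 12.3 CPM per kilobase in KO and 267 ± 24.8 in WT. The zinc importer genes came next and overlapped each other, Slc39a10 with 219.9 ± 13.5 CPM per kilobase in KO and 202 ± 20.1 in WT, and Slc39a8 with 200.5 ± 6.77 in KO and 199 ± 6.64 in WT. The zinc exporter gene Slc30a1 had 62.1 ± 2.12 CPM per kilobase in KO and 64.1 ± 9.75 in WT. Slc11a2, which encodes the iron carrier DMT1, had 12.7 ± 0.972 CPM per kilobase in KO and 13.4 ± 0.391 in WT. Slc30a10 with 2.26 ± 0.422 CPM per kilobase in KO and 2.21 ± 1.14 in WT, and Slc39a14 with 1.13 ± 0.477 in KO and 0.971 ± 0.282 in WT, came last and overlapped each other. The other neighbours in this order did not overlap over the 8 libraries. Per kilobase of all annotated exons, Fth1 stood at percentile 99.9 of the tested genes, Tfrc at 99.8 and Ftl1 at 99.7, whereas Slc30a10 stood at 31.7 and Slc39a14 at 13.9. Slc39a8, which like these last genes carries manganese, stood at 97.0.

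**Figure D1:**
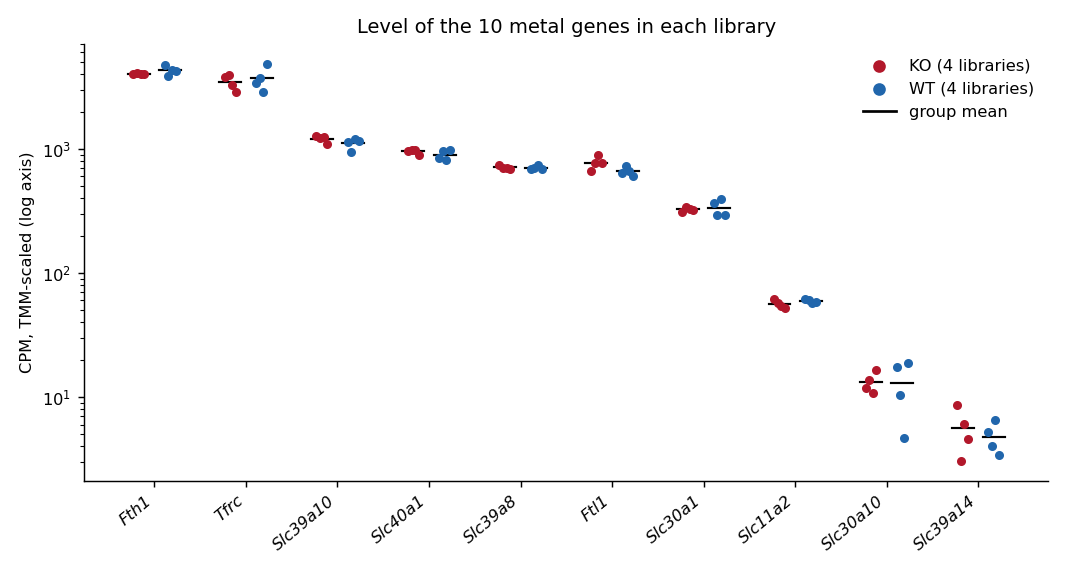
Level of each of the 10 genes in every library, as TMM-scaled CPM on a log axis, with KO points (red) left of WT points (blue) and a bar at each group mean. The KO and WT points of every gene overlap, and Slc30a10 and Slc39a14 lie lowest and spread most.

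None of the 10 genes was called different between KO and WT. EdgeR's quasi-likelihood test with Benjamini-Hochberg adjustment over all 14154 genes called 0 of the 10, against a background of 0.389% of genes called in either direction (0.276% higher and 0.113% lower in KO). At an unadjusted p under 0.05 it held 1 of the 10 (Ftl1), against 11.1% of all tested genes. DESeq2 and limma-voom likewise called 0 of the 10, where they called 2.34% and 0.509% of all genes they tested. Each held 1 of the 10 at an unadjusted p under 0.05. Over all genes DESeq2 held 1829 at that level and limma-voom 1811, beside 1575 by edgeR. KO and WT libraries overlapped for every one of the 10, whereas 7.19% of the tested genes did not overlap. Log2 fold changes lay between -0.10 and 0.23 and their median was 0.027, beside a median of 0.002 over all tested genes. For 8 of the 10 the 95% interval of the difference stayed within a 1.5-fold change in either direction, which was the case for 58.3% of all tested genes. The exceptions were Slc39a14 and Slc30a10, the genes with the lowest levels.

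**Figure D2:**
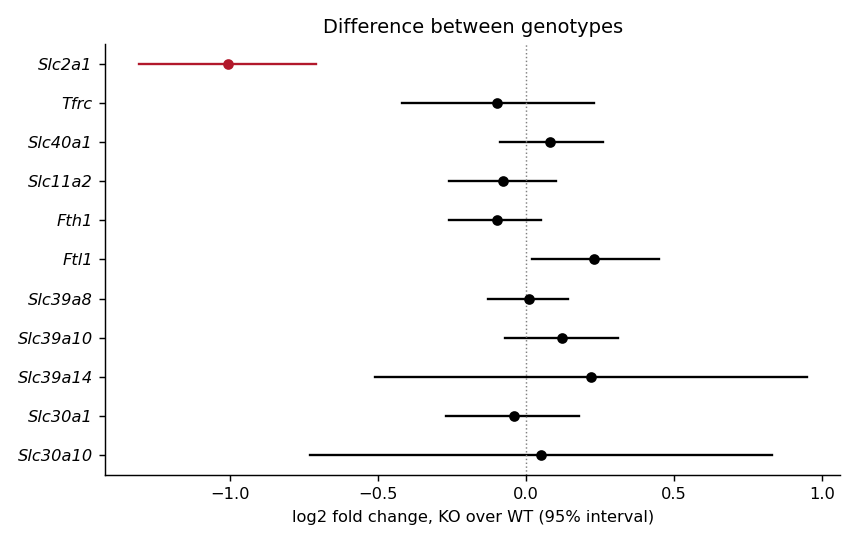
Log2 fold change of KO over WT with its 95% interval for the 10 metal genes (black) and for Slc2a1 (red). The intervals of 9 metal genes include 0 and that of Ftl1 starts at 0.02, while Slc2a1 lies at -1.01.

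Some annotated messengers of Tfrc, Fth1, Ftl1 and Slc40a1 carry the hairpin that iron regulatory proteins bind, and these sites are shown because they link the genes to cellular iron. They were searched in the untranslated regions of GENCODE M21 protein-coding transcripts as the letters CNNNNNCAGTGN followed by 5 bases that pair, G-T pairs allowed, with the 5 bases before the loop. Capitals mark the bulged C and the loop of 6 bases, and 5 bases are printed on either side of the match, on the strand of the gene and with T for U. Coordinates are GRCm38.
Fth1, 5′ UTR, chr19:9982733-9982759, plus strand: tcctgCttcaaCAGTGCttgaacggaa
Ftl1, 5′ UTR, chr7:45459780-45459806, minus strand: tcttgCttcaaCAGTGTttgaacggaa
Slc40a1, 5′ UTR, chr1:45925466-45925492, minus strand: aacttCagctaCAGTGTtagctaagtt
Tfrc, 3′ UTR, site 1, chr16:32631220-32631246, plus strand: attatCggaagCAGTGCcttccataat
Tfrc, 3′ UTR, site 2, chr16:32631599-32631625, plus strand: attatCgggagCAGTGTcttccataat
Tfrc, 3′ UTR, site 3, chr16:32631664-32631690, plus strand: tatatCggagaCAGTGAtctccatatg
Tfrc, 3′ UTR, site 4, chr16:32631711-32631737, plus strand: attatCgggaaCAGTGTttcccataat
The first 5 bases of the loop were fixed by the search. The ferritin sites have the same 5 bases on each side of the loop, while the Slc40a1 site and the Tfrc sites have others. The sites were found in 4 of 5 annotated protein-coding transcripts of Fth1, 1 of 2 of Ftl1, 1 of 4 of Slc40a1 and 1 of 3 of Tfrc. Counts per gene do not show which of these transcripts were present. Over the annotation, 0.15% of 20597 genes had a match in a 5′ untranslated region and 0.61% of 20979 genes in a 3′ untranslated region. The strict pairing rule found no match in the other 6 genes, including Slc11a2, and that says only that this pattern was not in the annotated untranslated regions.

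Tfrc (ENSMUSG00000022797; chromosome 16, 32608920 to 32632794, plus strand) was abundant in all pups and varied more within genotypes than between them. It measured 3810.4, 3937, 3267 and 2882 CPM in KO pups 1 to 4, against 3692, 2890.0, 4846 and 3424 CPM in WT pups 1, 2, 3 and 5. WT pup 3 was the highest library, and KO pup 4 and WT pup 2 were the lowest. KO averaged 3474 ± 490.3 CPM and WT 3713 ± 826 CPM (SD, n = 4 each). On the log2 scale KO over WT was -0.10 (SE 0.15, 95% interval -0.42 to 0.23, edgeR adjusted p 0.877). Its direction rested on WT pup 3, since the log2 fold change was 0.06 without that pup. It was also sensitive to the cage labels, at 0.02 with the cage of the titles as a term and at -0.48 with that of the second labels (edgeR adjusted p 0.992 and 0.768).

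Slc11a2 (ENSMUSG00000023030; chromosome 15, 100387898 to 100425072, minus strand) encodes DMT1, which carries iron out of the endosome after transferrin has released it. It measured 61.6, 57.4, 53.8 and 51.9 CPM in KO pups 1 to 4, against 60.5, 57.6, 58.2 and 61.1 CPM in WT pups 1, 2, 3 and 5. The lowest libraries were KO pups 3 and 4, and KO pup 1 was the highest of all. KO over WT was -0.08 on the log2 scale (SE 0.08, 95% interval -0.26 to 0.10, edgeR adjusted p 0.778). The gene Gm5475 lies on the opposite strand and shares 402 exonic bases with it, but held only 9 counts over the 8 libraries. Slc39a14 (ENSMUSG00000022094; chromosome 14, 70303469 to 70351425, minus strand), a carrier of manganese, zinc and iron not bound to transferrin, was the scarcest of the 10 genes. Its counts were 179, 74, 149 and 193 in KO pups 1 to 4 and 168, 729, 125 and 132 in WT pups 1, 2, 3 and 5. Scaled, KO pups had 8.59, 3.07, 6.09 and 4.61 CPM, against 4.01, 6.54, 3.39 and 5.20 CPM in WT pups. The libraries of both genotypes were intermixed, with KO pup 1 the highest and KO pup 2 the lowest, and the log2 fold change was 0.22 (SE 0.33, 95% interval -0.51 to 0.95, edgeR adjusted p 0.875). Without KO pup 1 it was -0.06, and with the cage of the second labels as a term 0.72.

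Slc40a1 (ENSMUSG00000025993; chromosome 1, 45908068 to 45926523, minus strand), the only known cellular iron exporter, was evenly expressed. It measured 965, 975, 982 and 892 CPM in KO pups 1 to 4, against 966, 818, 978 and 839 CPM in WT pups 1, 2, 3 and 5. WT pups 2 and 5 were the lowest, KO pup 4 was next, and the other 5 libraries lay between 965 and 982 CPM. KO pups averaged 953 ± 41.6 CPM and WT pups 900.1 ± 83.4 CPM (SD, n = 4 each). On the log2 scale KO over WT was 0.08 (SE 0.08, 95% interval -0.09 to 0.26, edgeR adjusted p 0.761), and it was -0.04 with the cage of the second labels as a term. The ferroxidases that oxidise the exported iron were present too: Heph averaged 46.7 ± 2.73 CPM among KO pups and 46.2 ± 5.09 CPM among WT pups, and Cp 67.8 ± 6.48 CPM among KO pups and 63.9 ± 14.9 CPM among WT pups (SD, n = 4 each). Their log2 fold changes were 0.02 and 0.09 (edgeR adjusted p 0.974 and 0.892).

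The ferritin chains pointed in opposite directions, and neither passed. Ftl1 (ENSMUSG00000050708; chromosome 7, 45457944 to 45459884, minus strand) measured 657, 771, 899.9 and 768 CPM in KO pups 1 to 4, against 728, 664, 605 and 640.1 CPM in WT pups 1, 2, 3 and 5. KO pups 2, 3 and 4 lay above every WT pup, and KO pup 1 lay below WT pups 1 and 2. KO pups averaged 774 ± 99.1 CPM and WT pups 659 ± 52.1 CPM (SD, n = 4 each). KO over WT was 0.23 on the log2 scale (SE 0.10, 95% interval 0.02 to 0.45), and edgeR's quasi-likelihood test across all genes gave an unadjusted p of 0.0375 and adjusted p 0.406. It was 0.14 without KO pup 3 and 0.30 without KO pup 1.

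Fth1 (ENSMUSG00000024661; chromosome 19, 9980598 to 9985098, plus strand) was the steadiest of the 10 genes among KO pups. It measured 4009, 4073, 4035 and 4000.2 CPM in KO pups 1 to 4, against 3891.5, 4357, 4275 and 4773 CPM in WT pups 1, 2, 3 and 5. The KO libraries fell within 1.02-fold of each other and lay between WT pup 1, the lowest WT library, and the other 3 WT pups. On the log2 scale Fth1 was at -0.10 (SE 0.07, 95% interval -0.26 to 0.05, edgeR adjusted p 0.65), and it was -0.24 with the cage of the titles as a term. The ratio of Fth1 to Ftl1 in CPM was 6.10, 5.28, 4.48 and 5.21 in KO pups 1 to 4, against 5.34, 6.56, 7.07 and 7.46 in WT pups 1, 2, 3 and 5. KO pups 2 to 4 lay below every WT pup, and KO pup 1 lay above WT pup 1 only. Ferritin genes have processed pseudogenes, 2 named after Fth1 and 3 after Ftl1 in the annotation, of which 1 had a row, with 94 counts in all. Reads that map to several copies can be split or lost, so the ferritin levels are uncertain in that respect. Gm10252, which lies on the strand opposite Ftl1 and shares 355 exonic bases with it, held 27 counts over the 8 libraries.

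Markers of microglia and macrophages, which also make ferritin, were present in all libraries, and their part in the Ftl1 values was not tested. All 11 microglial and macrophage markers were detected in every library, none at 0. Their summed level was 1128, 1668, 3022 and 2187 CPM in KO pups 1 to 4, against 1456, 1111, 1546 and 1785 CPM in WT pups 1, 2, 3 and 5. KO pup 3 was the highest and KO pup 1 the lowest of the KO pups for both the marker sum and Ftl1. Among WT pups the order differed, as WT pup 1 was highest for Ftl1 and WT pup 5 for the markers. The sums averaged 2001 CPM in KO and 1474.5 CPM in WT. This difference did not pass an exact two-sided permutation test (p = 0.286, adjusted 0.772 over 9 marker lists). All 11 markers had positive log2 fold changes, from 0.08 for Tmem119 to 0.77 for Mrc1, and none passed (smallest edgeR adjusted p 0.245, for Mrc1). Erythroid transcripts, another source of ferritin and transferrin receptor messengers, were summed over 10 genes. The sums were 655, 586, 860 and 1021 CPM in KO pups 1 to 4, against 906, 536, 1104 and 1646 CPM in WT pups 1, 2, 3 and 5. WT pup 5 was highest, as it was for Fth1, but the orders otherwise differed. KO pup 4 had the highest KO sum and the lowest KO Fth1, and WT pup 2 had the lowest sum but more Fth1 than WT pups 1 and 3. The erythroid genes Klf1 and Gata1 averaged below 1 CPM, and the part of such cells was not tested.

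**Figure D3:**
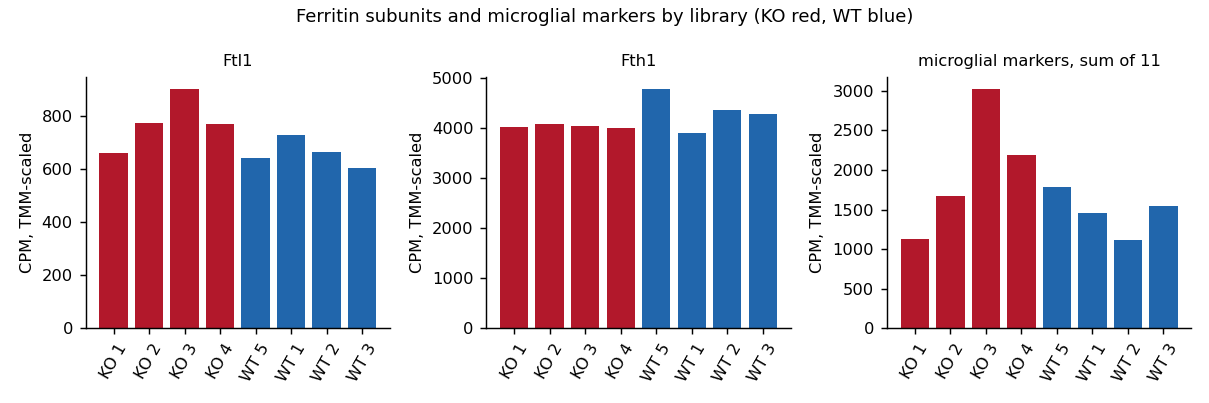
TMM-scaled CPM of Ftl1, of Fth1 and of 11 microglial and macrophage markers summed, in each KO library (red) and each WT library (blue). KO pup 3 has the tallest Ftl1 bar (899.9 CPM) and the tallest marker bar (3022 CPM), while the 4 Fth1 bars of KO lie within 1.02-fold of each other.

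Among zinc importer genes Slc39a10 and Slc39a8 held most of the family's counts, and neither passed the test. Slc39a10 (ENSMUSG00000025986; chromosome 1, 46807544 to 46892852, minus strand) encodes ZIP10, a zinc importer of the plasma membrane. It measured 1273, 1224, 1238 and 1102 CPM in KO pups 1 to 4, against 952, 1204, 1159 and 1130.3 CPM in WT pups 1, 2, 3 and 5. KO pups 1 to 3 were the 3 highest libraries and KO pup 4 was lower than 3 of the 4 WT pups. On the log2 scale KO over WT was 0.12 (SE 0.08, 95% interval -0.07 to 0.31, edgeR adjusted p 0.656).

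Slc39a8 (ENSMUSG00000053897; chromosome 3, 135825279 to 135888572, plus strand), which encodes ZIP8, a carrier of zinc, manganese and iron, was nearly constant. It measured 743, 704, 695 and 692 CPM in KO pups 1 to 4, against 707, 737, 692 and 683 CPM in WT pups 1, 2, 3 and 5. Its libraries lay within 1.07-fold of each other in KO and within 1.08-fold in WT, with KO pup 1 and WT pup 2 highest. The log2 fold change was 0.01 (SE 0.06), and its 95% interval of -0.13 to 0.14 corresponds to a KO level between 0.914 and 1.11 times the WT level (edgeR adjusted p 0.981). Leaving out KO pup 1, or WT pup 5, gave -0.02. The standard deviation of its log2 CPM within genotypes was at percentile 0.558 of all tested genes, the lowest of the 10. Together Slc39a8 and Slc39a10 took 82.8 ± 0.656% of all counts of the 14 SLC39 genes, scaled as CPM, in KO and 81.7 ± 1.26% in WT (SD, n = 4 each).

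Among exporters, Slc30a1 (ENSMUSG00000037434; chromosome 1, 191906767 to 191913247, plus strand), the zinc exporter ZnT1 of the plasma membrane, was the main SLC30 gene. It measured 312, 338, 330.0 and 323 CPM in KO pups 1 to 4, against 293, 393, 293 and 366 CPM in WT pups 1, 2, 3 and 5. All KO pups fell between the lower pair of WT pups (1 and 3) and the higher pair (2 and 5). The log2 fold change was -0.04 (SE 0.10, 95% interval -0.27 to 0.18, edgeR adjusted p 0.926), and it was 0.04 without WT pup 2 and 0.15 with the cage of the second labels as a term. Slc30a1 took 53.5 ± 0.535% of the CPM of the 10 SLC30 genes in KO and 53.4 ± 4.15% in WT (SD, n = 4 each). The antisense gene 1700034H15Rik shares 468 exonic bases with Slc30a1 and had no row of its own. As no source used here gives the strand setting of the counting, its reads cannot be told apart from those of Slc30a1.

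Slc30a10 (ENSMUSG00000026614; chromosome 1, 185454848 to 185468762, plus strand), the manganese exporter ZnT10, varied most among WT pups. It measured 11.8, 13.6, 10.8 and 16.45 CPM in KO pups 1 to 4, against 10.4, 4.64, 18.9 and 17.5 CPM in WT pups 1, 2, 3 and 5. WT pups held both the highest and the lowest library, with 4.08-fold between WT pup 3 and WT pup 2, while the KO pups lay within 1.52-fold. Among KO pups Slc39a14 spread more, by 2.80-fold. The log2 fold change was 0.05 (SE 0.36, 95% interval -0.73 to 0.83, edgeR adjusted p 0.978), and it was -0.24 without WT pup 2. With the cage as a term it was -0.40 by the titles and -0.52 by the second labels, and limma-voom gave 0.67. A long RNA on the opposite strand, Gm2061, shares 533 exonic bases with it and had no row, so its reads cannot be told apart either. Markers of mural cells, the pericytes and smooth muscle that wrap brain vessels, had, within each genotype, their highest and lowest sums in the same libraries as Slc30a10. Their summed level over 8 genes was 1516, 1881, 1493 and 2276 CPM in KO pups 1 to 4, against 1164, 404 and 2261 CPM in WT pups 1, 2 and 3 and 1707 CPM in WT pup 5. These were KO pup 4 and KO pup 3, and WT pup 3 and WT pup 2. All 8 markers were detected in every library, and their part in the Slc30a10 values was not tested. Tfrc had its highest and lowest WT values in the same pups, WT pup 3 and WT pup 2, but its lowest KO value in KO pup 4.

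**Figure D4:**
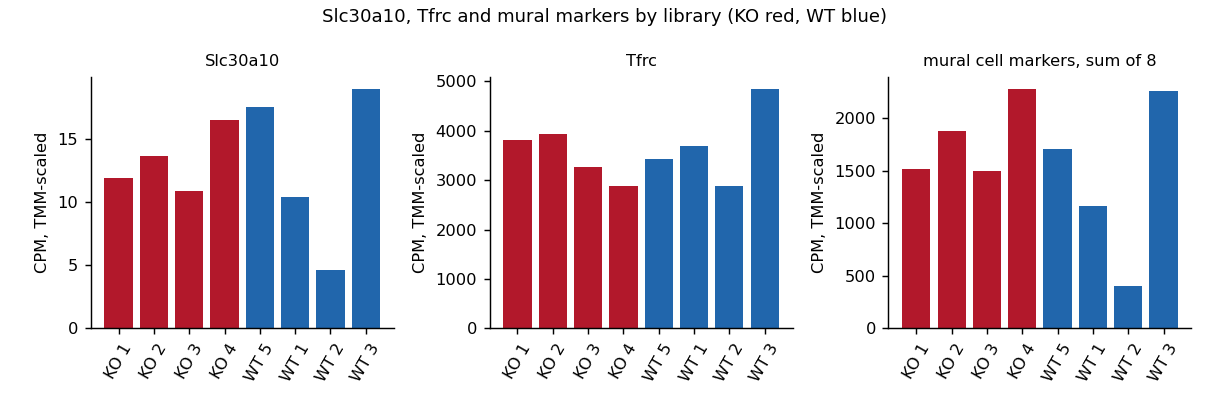
TMM-scaled CPM of Slc30a10, of Tfrc and of 8 mural cell markers summed, in each KO library (red) and each WT library (blue). In all 3 panels WT pup 2 has the shortest and WT pup 3 the tallest of the WT bars, and KO pup 4 has the tallest KO bar for Slc30a10 and the markers but the shortest for Tfrc.

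The wider pathways of metal handling showed no called gene either. Besides the 10 genes above, 78 genes were listed for 10 pathways or families, of which 65 were tested. EdgeR's quasi-likelihood test called 0 of the 65 over all genes, against the background of 0.389%, and DESeq2 and limma-voom called 0 as well. At an unadjusted p under 0.05 there were 4, 2 higher and 2 lower, or 6.15% against 11.1% of all tested genes. Their median log2 fold change was -0.014, beside 0.002 over all tested genes. KO and WT libraries did not overlap for 3 of the 65 (Hmox1, Flvcr1 and Tmem165), against 7.19% of all tested genes.

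Haem breakdown held the gene with the smallest p. Hmox1, haem oxygenase 1, which frees iron from haem, measured 123, 113, 167 and 133 CPM in KO pups 1 to 4, against 107, 91.3, 105 and 112 CPM in WT pups 1, 2, 3 and 5. Every KO pup lay above every WT pup, narrowly for KO pup 2 and WT pup 5. KO over WT was 0.37 on the log2 scale (SE 0.12), with an edgeR adjusted p of 0.247. KO pup 3, the highest for Hmox1, was also the highest for the microglial markers given above, and their part in it was not tested. Of the other haem genes, Urod and Fech, which act late in haem synthesis, had log2 fold changes of 0.17 and 0.16 (edgeR adjusted p 0.492 and 0.56). Flvcr1, a haem exporter, measured 15.7 to 18.0 CPM in KO and 12.8 to 15.5 CPM in WT, with a log2 fold change of 0.19 (edgeR adjusted p 0.622). The median of the 14 haem genes was 0.107.

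None of the tested genes that store, deliver or sense iron passed. Pcbp1, an iron chaperone that loads ferritin, averaged 193 ± 10.4 CPM among KO pups and 221 ± 15.0 CPM among WT pups (SD, n = 4 each; log2 fold change -0.19, edgeR adjusted p 0.353), while Pcbp2 and Ncoa4, the receptor that sends ferritin to lysosomes, had log2 fold changes of -0.02 and -0.03. Aco1, which encodes iron regulatory protein 1, measured -0.10 on the same scale (edgeR adjusted p 0.675). Neo1, a co-receptor in hepcidin control, averaged 104 ± 10.8 CPM in KO and 86.7 ± 10.3 CPM in WT (log2 fold change 0.26, edgeR adjusted p 0.37). Bmp2, an endothelial signal that raises hepcidin in liver, ranged from 40.9 CPM in KO pup 1 to 141 CPM in KO pup 3, against 36.0 to 66.8 CPM in WT pups, and did not pass (log2 fold change 0.59, SE 0.31, edgeR adjusted p 0.533). Hepcidin itself (Hamp) had 0 counts in all KO libraries, which allows up to 0.144 CPM in the shallowest of them, and at most 0.118 CPM in WT libraries. The iron-uptake genes with the smallest p were Scara5, Steap4 and Snx3, with log2 fold changes of -1.41, 0.57 and 0.12 (edgeR adjusted p 0.63, 0.676 and 0.689), and Scara5 stayed under 1.54 CPM in all libraries. For mitochondrial iron, Nfs1 and Glrx5 had log2 fold changes of 0.27 and -0.18, and Iscu, the scaffold for iron-sulfur clusters and the most abundant of that list per length, 0.03.

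**Figure D5:**
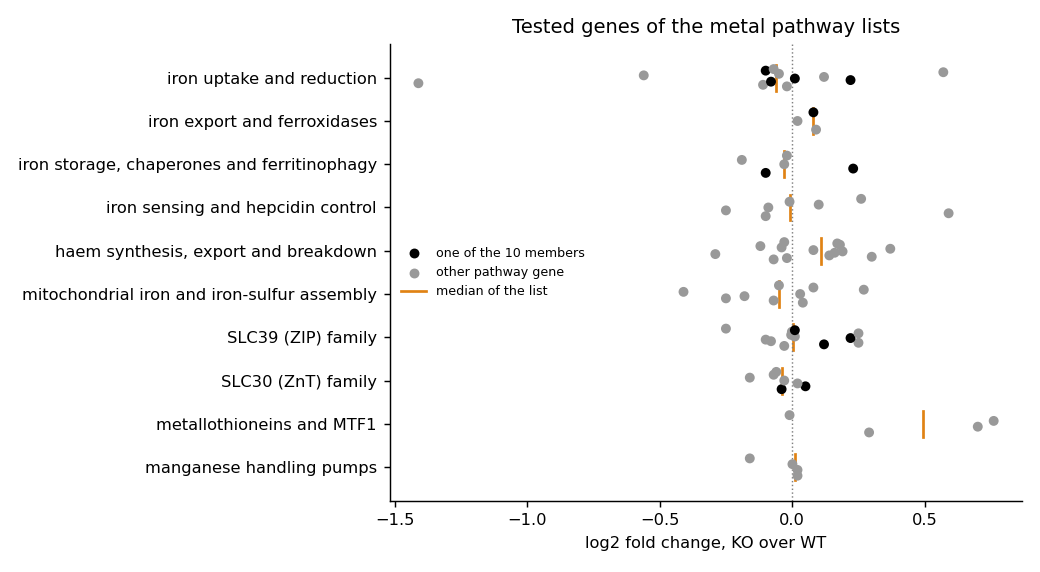
Log2 fold change of KO over WT for each tested gene of 10 pathway or family lists, with the 10 metal genes in black, other genes in grey and the list median as an orange bar. All medians lie between -0.059 and 0.107 except that of the metallothionein list, at 0.496.

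In the zinc families, 12 of 14 SLC39 genes and 7 of 10 SLC30 genes were tested and none was called. Slc39a9, Slc39a11 and Slc39a6 had the smallest p, with log2 fold changes of -0.25, 0.25 and 0.25 (edgeR adjusted p 0.367, 0.485 and 0.506). Slc30a6, Slc30a7 and Slc30a9 had -0.16, -0.07 and -0.06 (edgeR adjusted p 0.82, 0.85 and 0.894). The family medians were 0.003 and -0.045. Metallothioneins bind zinc, and Mt1 and Mt2 rise when it is in excess. Mt1 averaged 32.0 ± 3.74 CPM in KO and 26.2 ± 12.3 CPM in WT, Mt2 20.3 ± 5.18 CPM in KO and 12.5 ± 8.56 CPM in WT, and Mt3 5.48 ± 1.93 CPM among KO pups and 3.28 ± 1.60 CPM among WT pups (SD, n = 4 each). None passed (log2 fold changes 0.29, 0.70 and 0.76, edgeR adjusted p 0.755, 0.549 and 0.546), and WT pup 1 held the highest Mt1 of all libraries. Of the 6 astrocyte markers, 5 had positive log2 fold changes, as given above, and their part in the metallothionein values was not tested. Among genes listed for manganese handling, Tmem165, a Golgi carrier, measured 74.8 to 88.5 CPM in KO and 90.6 to 95.1 CPM in WT. Its log2 fold change was -0.16 (SE 0.07, edgeR adjusted p 0.454). Atp13a1 and Atp13a2 both measured 0.02 on that scale.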

How the data were processed

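The authors deposited 1 table of raw counts per gene for each of 8 libraries, per the file headers. The submitters' processing notes name featureCounts, STAR and the build GRCm38. No source used here gives versions, annotation release, strand setting or the treatment of multiply mapped reads. Per the labels' protocols, stranded poly(A) libraries were read from a single end at 100 bp.

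Groups came from the sample titles. Symbols, lengths and transcript sequences came from GENCODE M21, which named 25587 of 25700 identifiers; Hjv was listed but had no row and was not analysed here. Genes were kept by filterByExpr (minimum count 10, minimum total 15) and fitted on the whole table with edgeR 4.0.16 (R 4.3.3) by a quasi-likelihood F test with genotype as the only term, TMM scaling (factors 0.978 to 1.03) and Benjamini-Hochberg adjustment, with a threshold of 0.05. A standard error is the size of the log2 fold change divided by the root of its F value. Alternatives used DESeq2 1.42.0, limma 3.58.1 (voom), other scalings, no filter, cage terms, pup number as a block, and each library left out; leaving out KO pup 1 with WT pup 2 was chosen after seeing the data. Nothing shows that pups of equal number are related. No 2 libraries agreed within sampling noise: their chi-square per gene was at least 16.3. P-values set the difference between genotypes against the spread between pups of the same genotype.

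The members and the lists were chosen with earlier results of these data known. Beside the members and Slc2a1, the text names the pathway genes called, the 3 with the smallest p of each list and the most abundant per length; Flvcr1, Hamp and the marker genes given with values were named after their values were seen, and a gene that this rule names is not reported here. A count of 0 allows up to 3 counts, and that limit covers counting error only.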

Additional observations from a re-analysis of the deposited data

Results flagged for a closer look

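The gap between an extreme library and its nearest neighbour was compared with the range of the group in 82 groups of 4 libraries, of which chance marks about 1 in 20. Urod, an enzyme of haem synthesis, measured 51.3 CPM in WT pup 3, apart from 44.2 to 45.4 CPM in the other WT pups. Slc30a6, a zinc carrier of the Golgi, measured 8.11 CPM in KO pup 1, apart from 13.2 to 14.2 CPM in the other KO pups. KO pup 1 was also the library with the fewest detected genes, 13624. None of the 10 metal genes had such a library.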

How the results depend on the processing

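None of the 10 metal genes and none of the other listed pathway genes was called in any of 17 alternatives, and 19 of 170 log2 fold changes of the 10 genes changed sign; where no value shows it, the cause was not tested. Over all genes, 39 were higher and 16 lower in KO. DESeq2 called 171 higher and 180 lower, and without a filter 38 were lower. With the cage of the titles as a term 10 were higher and 6 lower, and with that of the second labels 10 higher and 0 lower by edgeR, where 314 were lower at an unadjusted p under 0.05. With pup number as a replicate block, which uses pups 1 to 3 of each genotype only, 11 were higher and 0 lower, where 521 were lower at an unadjusted p under 0.05. Leaving out 1 library gave 25 (without KO pup 2) to 60 (without KO pup 1) higher and 6 (without KO pup 3) to 27 (without WT pup 3) lower, with 25 lower without KO pup 1, and leaving out KO pup 1 and WT pup 2 gave 26 lower. Slc2a1 was at -0.89 with the cage of the second labels (edgeR adjusted p 0.331) and at -0.91 with the block (edgeR adjusted p 0.0644). With the cage of the titles it was at -1.31 (edgeR adjusted p 0.0207), and it stayed called in all the other alternatives too. Pups of equal number did not deviate together (r = -0.03, 0.03 and -0.07), while pairs of unequal number had r from -0.24 to 0.26. These values cannot decide whether pups of equal number are related.

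With the cage of the titles, Tfrc was at 0.02 and Slc30a10 at -0.40. With that of the second labels, Slc40a1 was at -0.04, Slc30a1 at 0.15 and Slc30a10 at -0.52. With the replicate block Slc30a1 was at 0.02, without a filter Slc39a8 at -0.0027, and by limma-voom Slc39a14 at -0.03. The highest values were 0.67 for Slc30a10 by limma-voom and 0.72 for Slc39a14 with the cage of the second labels. Without KO pup 1 and WT pup 2, Slc30a1 was at 0.06 and Slc30a10 at -0.19. Leaving out 1 library gave -0.20 to 0.06 for Tfrc, -0.02 to 0.03 for Slc39a8, -0.06 to 0.41 for Slc39a14, -0.11 to 0.04 for Slc30a1 and -0.24 to 0.30 for Slc30a10. Ftl1, Fth1, Slc11a2 and Slc39a10 kept their direction in all 17, which draw on the same libraries. Ftl1 was at 0.14 to 0.36 (adjusted p 0.211 to 0.922 by edgeR, DESeq2 or limma-voom). Fth1 was at -0.24 to -0.05, Slc11a2 at -0.14 to -0.03 and Slc39a10 at 0.05 to 0.18. Slc39a14 had 74 to 729 counts and Slc30a10 247 to 698, and the SD of log2 CPM within genotypes was 0.52 and 0.68.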
